A study of Arabidopsis thaliana with 4 samples.

Results

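The probes of plates TC17 to TC30 form a separate block at the end of plate set TC of an Arabidopsis thaliana tiling array that was used to profile trimethylated histone H3 at lysine 36 (H3K36me3). The members were chosen by their identifiers alone: set TC, plate number 17 to 30, and a value on all 4 arrays. This gave 1133 of 21685 probes, on 13 plates, because no identifier of set TC carries plate number 26. The block was singled out with earlier results of the same data known, and its name as a low block comes from them. Its low level is therefore described below and is not independent evidence.

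The material was untreated seedlings of the col-0 ecotype, given as 10 days old, grown in liquid medium under a long photoperiod. Chromatin was immunoprecipitated with a commercial antibody to H3K36me3 (vendor entry Abcam_ab9050), and the precipitated DNA (ChIP) was hybridised against input DNA of the same extract pair, with Cy3 and Cy5 as dyes. There were 2 extract pairs, numbered I and II in the labels and called replicates 1 and 2 here, each on 2 arrays with the dyes exchanged. Nothing in the labels states if both pairs were grown or extracted separately. The p-values therefore reflect the spread of the 2 pairs alone, and that spread may be technical. In the limma p-values below it is mostly pooled over all probes (1 residual and 23.1 prior degrees of freedom). A small limma p-value is thus no measure of how well both replicates agreed at that probe. The 4 arrays form 1 group, so no contrast between conditions is made.

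H3K36me3 is a histone modification laid down behind elongating RNA polymerase II, in Arabidopsis mainly by the methyltransferase SDG8, and it is known from the bodies of transcribed genes. In this plant the mark is typically strongest in the first part of the gene body, and it is sparse over silent, repeat-rich chromatin. A tile over an active gene is thus usually marked together with the tiles beside it. This is background and was not tested here, since no table used here pairs the identifiers with genes, positions or sequences. No gene is named and no probe sequence is shown for that reason.

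The deposited value is 1 log ratio per probe and array. The sources used here do not give its base, its direction (ChIP over input or the reverse) or its normalization. High and low below refer to the ratio as deposited, and all of them exchange places for the mark if the ratio runs input over ChIP. Within each dye-swap pair the deposited values were the same on both arrays, and the pair was counted as 1 replicate. The deposited median over all probes was -1.22 in replicate 1 and -1.10 in replicate 2. Each replicate was centred on that median, so a value of 0 is the median of the array and not an absence of the mark. The number of arrays limits the precision.

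Most of the block had low ratios, at a level that differed from plate to plate, with a few short high stretches between them. Its mean ratio relative to the array median was -0.62 in replicate 1 and -0.31 in replicate 2, that is -0.47 ± 0.22 (SD, n = 2 replicates). The medians were -0.69 and -0.32. Over the block's probes the SD was 0.425 (replicate 1) and 0.392 (replicate 2), compared with 1.15 and 1.05 over all other probes. The block thus covered a much narrower range than the rest of the array in both replicates. The middle 80% of its replicate means ran from -0.86 to -0.07, while those of the other probes ran from -0.66 to 2.23. Over low probes alone (defined below) the contrast was smaller. Their SD was 0.335 in replicate 1 and 0.318 in replicate 2 within the block, against 0.410 and 0.356 elsewhere.

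**Figure D1:**
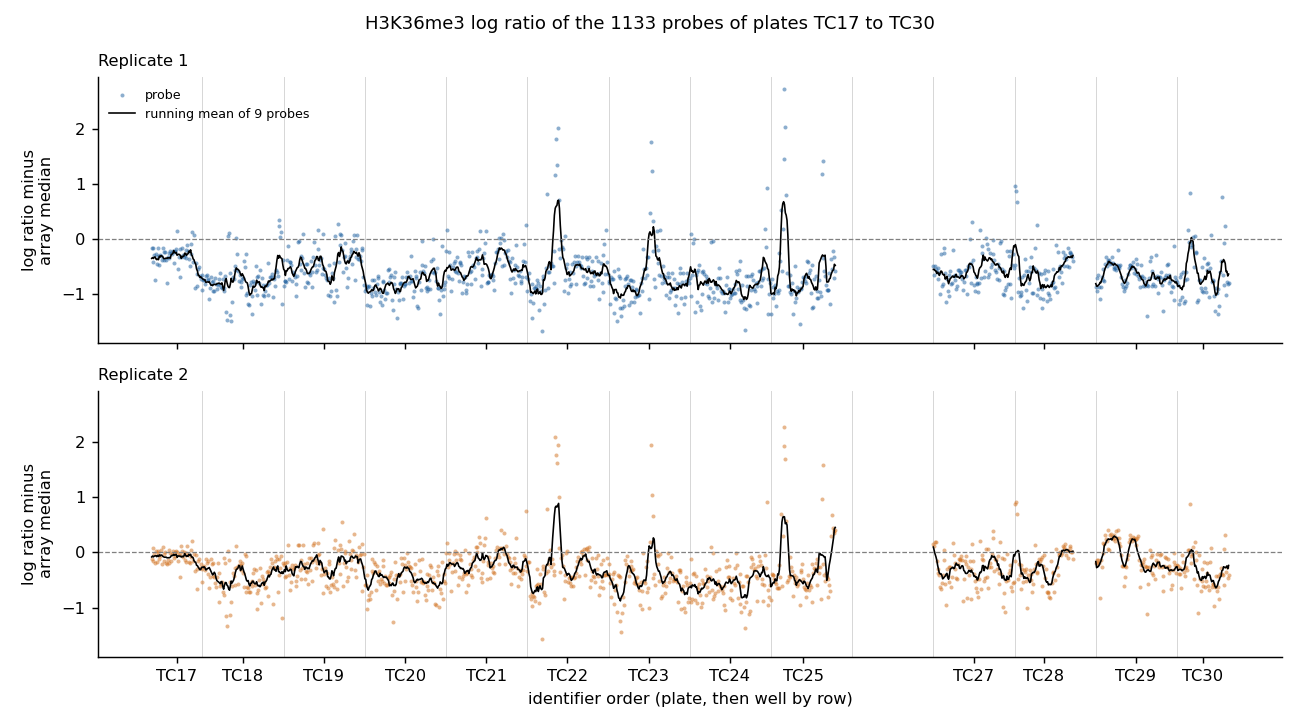
Log ratio minus the array median (y axis) of each of the 1133 probes in identifier order (x axis), with replicate 1 above and replicate 2 below. Points are probes, the black line is a running mean of 9 probes, pale vertical lines are plate boundaries and the dashed line is the array median. Most points lie below 0 in both replicates, with narrow peaks on plates TC22, TC23 and TC25 and a lower one at the start of TC28.

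Per probe, 810 of the 1133 (71.5%) passed as lower than the array median and 24 (2.12%) as higher, and 299 (26.4%) were not called (limma, Benjamini-Hochberg adjusted over all 21685 probes, threshold 0.05, n = 2). Over the whole array the same test called 32.3% of probes below and 38.9% above. Both replicates had the same sign at 833 of the 834 called probes of the block. Calls were made on the mean of these same values, and the smallest called mean was 0.315 in size. Equal signs thus largely follow from the call and are no separate evidence. Without a test, 946 block probes (83.5%) lay below the array median in both replicates, where 45.4% of all probes did. Only 49 (4.32%) lay above it in both, where 45.4% of all probes did.

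The zero point matters for these counts. The array median lies on the upper side of the low probes of the array: a mixture of 2 normal distributions fitted to all probes put its lower component at -0.34 in replicate 1 and -0.27 in replicate 2. Measured from that component, the block lay at -0.29 in replicate 1 and at -0.04 in replicate 2. With that zero point 339 block probes (29.9%) were called below, against 11.7% of all probes, and 64 (5.65%) above, against 47.8% of all probes. So in replicate 1 the block lay below the typical low probe of the array, and in replicate 2 it lay close to it.

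The block was compared with plates TC00 to TC13, which come before it in the same set, and with plates TA37 to TA51, another long low stretch of the array. The 1282 probes of TC00 to TC13 averaged 0.81 in replicate 1 and 0.67 in replicate 2. The block lay below them by -1.43 and -0.97 (mean difference -1.20 ± 0.32, SD, n = 2; exact sign-flip test, two-sided, p = 0.5, the smallest that 2 replicates allow). Over low probes alone, the block lay below them by -0.48 in replicate 1 and -0.05 in replicate 2, a mean of -0.26 ± 0.31 (SD, n = 2). In TC00 to TC13, 53.4% of probes were called above the array median and 21.5% below. No identifier with a value lies between TC13C10 and TC17D01, so the change of level between both plate groups cannot be followed probe by probe. The last probe before that gap, TC13C10, had -0.0063 and 0.00017, and the first of the block, TC17D01, had -0.17 and -0.12. Neither was called (limma adjusted p = 0.985 and 0.361, in that order). These are single probes and do not give the level on either side of the gap. Plate TC13 averaged 0.59 in replicate 1 and 0.51 in replicate 2. The first 51 probes of the block averaged -0.30 and -0.06.

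**Figure D2:**
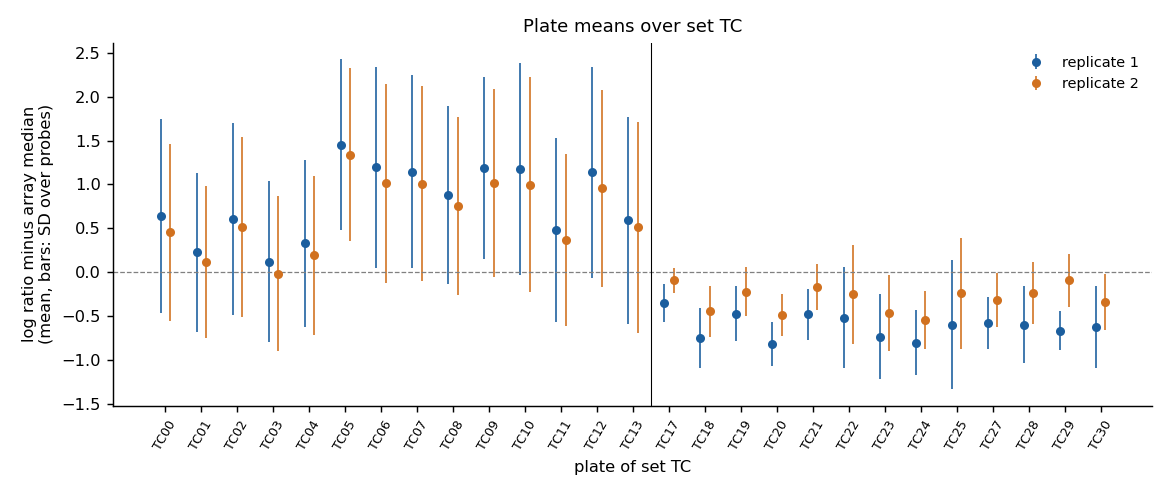
Mean log ratio minus the array median (y axis) of each plate of set TC (x axis) in both replicates. Bars are the SD over the probes of the plate, and the vertical line marks the gap after TC13. All 13 plates to its right lie below 0 in both replicates, with replicate 2 above replicate 1 on each of them.

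Plates TA37 to TA51 had slightly lower means than the block. Their 1338 probes averaged -0.65 in replicate 1 and -0.38 in replicate 2. The block lay 0.03 and 0.07 above them (mean difference 0.05 ± 0.03, SD, n = 2; exact sign-flip test, two-sided, p = 0.5), and over low probes alone 0.07 and 0.10 above. TA37 to TA51 held more called probes in both directions, with 83.6% below and 3.96% above. The SD of the replicate means over probes was 0.388 in the block and 0.490 there. Over low probes alone it was 0.300 in the block and 0.274 there. The interquartile range over all probes of each region was also wider in the block, at 0.409 against 0.329. With 2 replicates no difference between both low regions could pass a threshold of 0.05.

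The low probes were also compared by themselves. Probes of the lower population, which are those assigned to the lower mixture component, averaged -0.66 in replicate 1 and -0.34 in replicate 2 within the block, where they made up 1111 of the 1133. The 12728 lower probes elsewhere averaged -0.31 and -0.29. The gap was -0.35 in replicate 1 and -0.05 in replicate 2. Lower probes were defined by these same values, so no test is given. The mean gap of -0.20 was smaller than its SD of 0.21 between replicates, and almost all of it came from replicate 1.

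**Figure D3:**
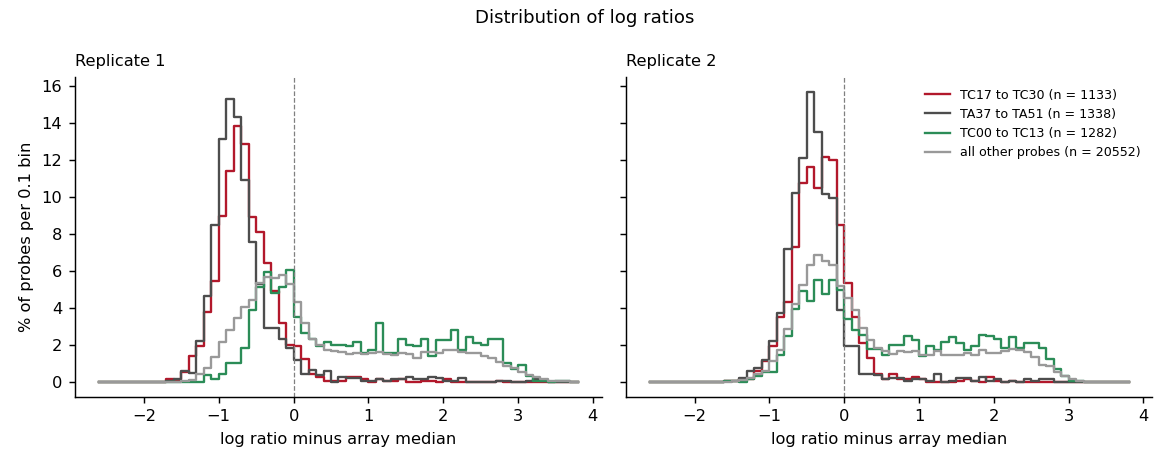
Share of probes in bins of 0.1 (y axis, %) by log ratio minus the array median (x axis) in replicate 1 (left) and replicate 2 (right) for the block, plates TA37 to TA51, plates TC00 to TC13 and all probes outside the block. The block and TA37 to TA51 each form 1 narrow peak below 0, without the broad shoulder of high ratios that the other probe sets have.

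The identifiers of the block fall into 3 unbroken runs, with breaks after TC25G05 and after TC28F10. The first ran from TC17D01 to TC25G05 with 809 probes, the second from TC27A01 to TC28F10 with 166 and the third from TC29A01 to TC30F02 with 158. No identifier of set TC carries plate number 26, which lies in the first break. Members had a value by the rule of choice, and other identifiers without a value within these breaks were not looked for. The mean ratios of the runs in replicate 1 were -0.63, -0.59 and -0.65, in that order, and in replicate 2 they were -0.34, -0.28 and -0.19. The 3 runs thus lay close together in replicate 1, while the third lay highest in replicate 2. Its plates differed there, with -0.09 on TC29 and -0.34 on TC30, the latter at the level of the first run. The shares called below in the 3 runs were 73.3%, 68.7% and 65.2%, against 32.3% of the array.

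All 13 plates had a mean below the array median in both replicates, but they were not alike. Plate TC24 was the lowest, at -0.80 in replicate 1 and -0.55 in replicate 2, and its mean ranked 1st from below among the 231 plates of the array. It was followed by TC20, at -0.82 and -0.49, which ranked 2nd. On TC20, 91 of 96 probes (94.8%) were called below, and all 96 lay below the median in both replicates. At the other end, TC17 averaged -0.35 and -0.09, and 13 of its 60 probes (21.7%) were called below, fewer than in the array as a whole. Over the 13 plates, the means of both replicates correlated with r = 0.820, which is a description across plates of the same arrays.

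Plate TC17 changed level within itself. Its first 51 probes, from TC17D01 to TC17H03, varied little and lay above the level of the block in both replicates, with a mean of -0.30 in replicate 1 and -0.06 in replicate 2 and an SD of their replicate means of 0.136. The last 9, from TC17H04 to TC17H12, averaged -0.66 and -0.27, near the means of the whole block (-0.62 and -0.31). The next plate, TC18, averaged -0.75 and -0.45. Of the first 51 probes 6 were called below, and of the last 9 probes 7. This boundary was placed after the values were seen and is a description.

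The longest unbroken series of probes called below held 52 probes, from TC19H11 to TC20E02, with a mean of -0.89 in replicate 1 and -0.47 in replicate 2. Series of 42 probes (TC22H12 to TC23D05, -0.94 and -0.56) and 41 probes (TC25B08 to TC25E12, -0.86 and -0.48) came next. In the block such series averaged 6.75 probes, against 2.80 elsewhere, and the longest elsewhere held 56. Of the 93 complete plate rows of 12 wells, 90 had a mean below 0, against 30.3% of 1648 complete rows elsewhere, and 85 had one below 0 in both replicates. The lowest was row F of TC24, at -1.08 and -0.84. Both contrasts largely follow from the low level of the block, where 71.5% of probes were called below against 30.1% elsewhere. They are no separate evidence.

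The lowest single probe was TC22B06, with -1.67 in replicate 1 and -1.57 in replicate 2, or -1.62 ± 0.07 (SD, n = 2; limma adjusted p = 1.01e-10). TC24F06 had -1.65 and -1.37 (limma adjusted p = 5.79e-10). TC23B04 had -1.40 and -1.43 (limma adjusted p = 1.33e-09), and TC18C06 had -1.47 and -1.33 (limma adjusted p = 1.69e-09). Each of these 4 lay below the probes on both of its sides in both replicates. Next came TC23A11, with -1.49 and -1.07.

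The lowest probes sat in different surroundings. Around TC23B04 the ratios changed little from probe to probe, with -1.26 and -1.25 at TC23B03 and -1.25 and -1.10 at TC23B05. TC24F06 also lay among low probes, with means of -1.12 and -1.08 on its sides. TC18C06 stood at an edge: TC18C05 before it had a mean of -1.24, and TC18C07 after it had 0.05 in replicate 1 and 0.03 in replicate 2. TC22B06 stood out from milder neighbours, with means of -0.76 and -0.52.

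Short high stretches were the exception. Upper probes are those that the mixture assigned to its upper component with a posterior probability above 0.99. This held for 11 block probes (0.971%), against 28.3% of all probes and 2.39% of TA37 to TA51. The share depends on the cut: it was 1.94% with a posterior above 0.5 (36.2% of all probes) and 0.353% with the upper of 3 components alone (15.6% of all probes). They lay on 3 of the 13 plates, TC22, TC23 and TC25, all in the first identifier run. The 11 probes formed 4 groups of neighbours, of 4, 2, 3 and 2 probes, and 0 stood alone. Elsewhere on the array upper probes formed 1756 such groups with a mean length of 3.49, against 2.75 in the block.

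The highest group was centred on plate TC25, row B. TC25B04 had 1.44 in replicate 1 and 1.94 in replicate 2. TC25B05, the highest probe of the block, had 2.71 and 2.27, or 2.49 ± 0.31 (SD, n = 2; limma adjusted p = 7.48e-14). TC25B06 had 2.02 and 1.69 (limma adjusted p = 1.25e-11). The ratio peaked at the middle probe in both replicates and fell on both sides, to 0.17 and 0.30 at TC25B03 and to 0.80 and 0.56 at TC25B07. The next probe, TC25B08, had -0.62 and -0.54, back at the level of the block. A single probe called above, TC25B01 at 0.52 and 0.70, lay 3 wells before the group.

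The longest group lay on plate TC22 and had no common peak in both replicates. TC22C10 had 1.15 in replicate 1 and 2.09 in replicate 2, the widest replicate difference (-0.94) among the upper probes of the block. TC22C11 had 1.82 and 1.77, TC22C12 had 1.33 and 1.62, and TC22D01 had 2.00 and 1.94, or 1.97 ± 0.04 (SD, n = 2; limma adjusted p = 2.19e-12). On its near side the ratio rose from -0.23 and -0.34 at TC22C09 to these values within 1 probe. On its far side it fell through 0.71 and 1.02 at TC22D02 to -0.19 and 0.08 at TC22D03. With TC22D02, 5 consecutive probes were called above the median, the longest such series in the block.

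The other upper groups were a pair of probes each. TC23E03 had 1.76 in replicate 1 and 1.95 in replicate 2, and TC23E04 had 1.22 and 1.04. Their outer neighbours TC23E02 (0.47 and 0.20) and TC23E05 (0.31 and 0.66) were called above too, so that 4 consecutive probes were called. TC25F01 had 1.17 and 0.97, and TC25F02 had 1.41 and 1.58. Here both edges were sharp: TC25E12 before them had -1.03 and -0.85, and TC25F03 after them had -0.36 and -0.21.

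**Figure D4:**
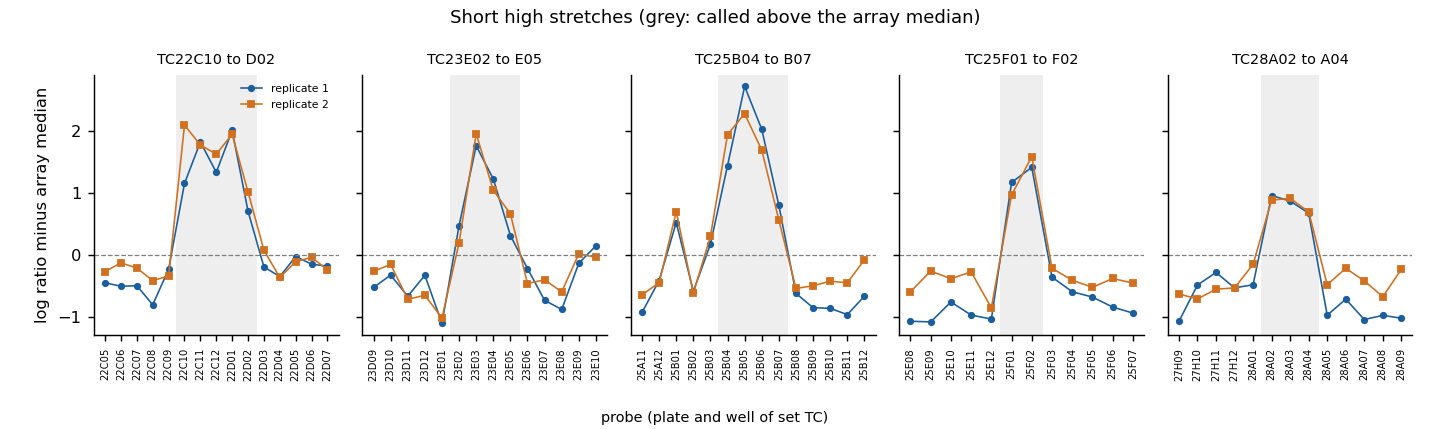
Log ratio minus the array median (y axis) of each probe (x axis, plate and well) around the 5 series of 2 or more consecutive probes called above the array median, with 5 further probes on each side. Grey marks the called probes, blue circles are replicate 1 and orange squares replicate 2. Both replicates are high at the same probes in all 5 panels, though not always highest at the same one.

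Another stretch of the same kind fell short of the upper population. TC28A02 had 0.96 in replicate 1 and 0.88 in replicate 2, TC28A03 had 0.87 and 0.91, and TC28A04 had 0.67 and 0.70. All were called above the median (limma adjusted p = 2.16e-06, 3.47e-06 and 1.09e-04, in that order). Among the probes called above that stood alone were TC24H08 (0.91 and 0.92), TC30B04 (0.84 and 0.88) and TC22B12 (0.82 and 0.79). The lowest value in the upper population of the whole array was 0.98, so TC28A02 at 0.92 and TC24H08 at 0.92 lay just outside it, and TC25F01 at 1.07 just inside.

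The 24 probes called above fell into 11 series, of which 4 held 3 or more probes, 1 held 2 and 6 were single. The 11 upper probes averaged 1.64 in replicate 1 and 1.72 in replicate 2, with a mean of 1.68 ± 0.40 (SD over probes). The 6126 upper probes elsewhere averaged 2.03 and 1.86. The high stretches of the block were thus lower on average than upper probes elsewhere in both replicates. Upper probes were defined by these same values, so no test is given.

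Neighbouring probes of the block had similar ratios, and the similarity fell with distance. For consecutive identifiers, the replicate means correlated with r = 0.569 over 1130 pairs. At 2, 3 and 5 identifiers apart r was 0.365, 0.273 and 0.169, and at 12, a full plate row, it was 0.046. For the other probes of the array the corresponding values were 0.722, 0.483, 0.361, 0.272 and 0.174. In TA37 to TA51 they were 0.637, 0.422, 0.298, 0.119 and 0.067, above the block at 1 to 3 identifiers and below it at 5. Pairs share arrays and, in part, probes, so these are descriptions without a p-value. Without the 11 upper probes of the block, r was 0.449 for consecutive probes, 0.223 at 5 identifiers apart and 0.081 at 12, lower than with them for neighbours and higher at these distances. Means over the 8 row letters of the plates ran from -0.74 to -0.54 in replicate 1 and from -0.38 to -0.26 in replicate 2.

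The correlation between replicates was lower in the block than over the rest of the array, and so it was in TA37 to TA51. Pearson r between replicates across the 1133 probes was 0.801 and Spearman rho 0.712, against 0.970 and 0.940 over all other probes, which span a wider range. In TA37 to TA51 they were 0.867 and 0.626. Across low probes alone, r was 0.693 in the block, 0.638 in TA37 to TA51 and 0.758 over all other probes. The SD of the replicate difference was 0.259 in the block and 0.288 elsewhere, so the replicates of the block did not scatter more around their mean difference.

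The level of the replicates differed in 1 direction. Replicate 1 lay below replicate 2 by 0.32 on average, at 1019 of the 1133 probes (89.9%) and in the mean of all 13 plates. Of all probes of the array, 44.5% had the lower value in replicate 1, and of those in TA37 to TA51 83.5%. Elsewhere the mean difference, replicate 1 minus replicate 2, was 0.05, and in TA37 to TA51 it was -0.27. Low probes differed by -0.32 in the block, by -0.29 in TA37 to TA51 and by -0.02 over all low probes outside the block. The 11 upper probes of the block differed by -0.08 on average, against 0.17 for upper probes elsewhere. Both signs occurred among the 11, from -0.94 at TC22C10 to 0.44 at TC25B05. With quantile normalization, which gives both replicates the same distribution over the array, the difference of the block was -0.24. One value per probe in each replicate leaves no test of this difference, and its cause was not tested.

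The difference was widest on plate TC29, where it averaged -0.58, the most negative of all 231 plates. The next in the array was TA43 at -0.40, and the next in the block was TC28 at -0.36. Replicate 1 of TC29 averaged -0.67, at the level of the block, while replicate 2 averaged -0.09. The difference averaged -0.73 over the following stretches, which were picked after their values were seen, and -0.49 over the other probes of the plate. From TC29A10 to TC29C06, 21 consecutive probes lay at -0.47 in replicate 1 (range -0.76 to -0.20) and at 0.25 in replicate 2 (range 0.05 to 0.41). From TC29D04 to TC29E03, 12 consecutive probes lay at -0.52 (range -0.68 to -0.37) and at 0.24 (range 0.13 to 0.31).

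Within these stretches, 33 probes in all, the ratio was nearly constant, with an SD over probes of 0.106 in replicate 1 and 0.086 in replicate 2, and the opposite signs are how the stretches were chosen. The 9 probes between the stretches fell in both replicates together, to -0.81 and -0.25. Opposite signs draw the mean towards 0, so that none of the 33 was called follows largely from the choice. A call stays possible, as at TC22F08 with -0.83 in replicate 1 and 0.06 in replicate 2 (limma adjusted p = 0.0406). The opposite signs also need the centring: as deposited the stretches averaged -1.71 in replicate 1 and -0.86 in replicate 2. They remained at -0.45 and 0.28 after quantile normalization.

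**Figure D5:**
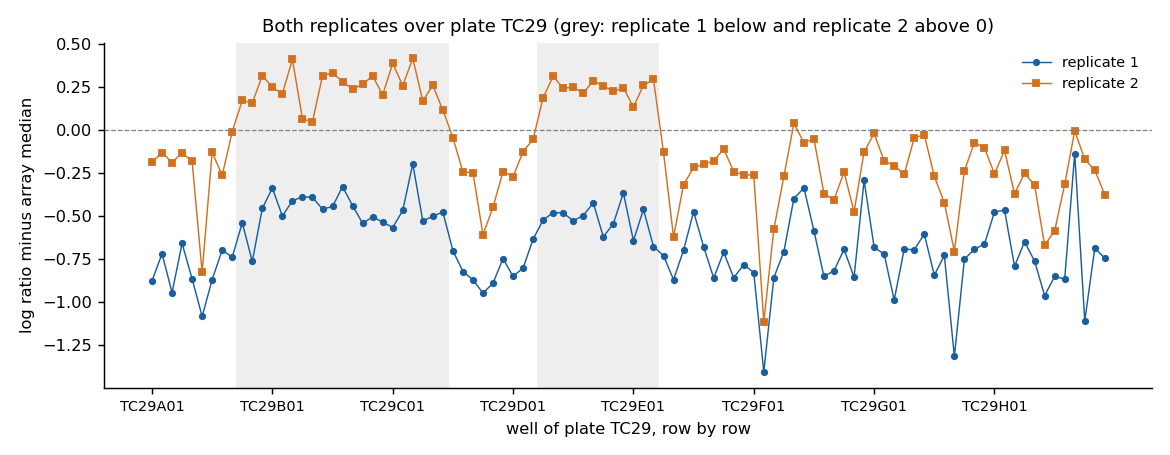
Log ratio minus the array median (y axis) along the 96 wells of plate TC29, row by row (x axis), with blue circles for replicate 1 and orange squares for replicate 2. Grey marks the stretches of 21 and 12 consecutive probes with replicate 1 below and replicate 2 above 0. Both curves rise and fall together, and the gap between them is widest inside the grey areas.

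Across the array, 4.63% of probes lay below the median in replicate 1 and above it in replicate 2. In the block these were 121 probes (10.7%), and in TA37 to TA51 2.84%. The stretches of TC29 were the longest consecutive series of this kind, and the next longest also lay in the block, with 6 probes from TC25F12 to TC25G05 and 5 from TC28F05 to TC28F09. Outside the block no series exceeded 4 probes. A ranking that does not depend on the zero point gave the same plate. Among windows of 12 unbroken probes, the mean replicate difference reached -0.76 at TC29D04 to TC29E03, compared with -0.66 in the lowest of 19654 windows elsewhere, from TA40H11 to TA41A10. In all, 26 of the 1100 windows of the block, each on TC29, lay beyond that value. A window starts at every probe, so these 26 overlap and are not separate stretches. They also cover the stretches of TC29 picked above.

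Single probes with the widest replicate difference were partly neighbours as well. TC25G01 had -0.55 in replicate 1 and 0.68 in replicate 2, and TC25G03 had -0.72 and 0.35. Both belong to the 6 probes at the end of the first identifier run. TC30A07 had -1.06 and -0.05. In the opposite direction TC30E06 had 0.76 and -0.40, TC18H08 had 0.34 and -0.41, and TC28C03 had 0.26 and -0.35. The difference exceeded 1 in size at 4 of the 1133 probes. The last probe of the block, TC30F02, had -0.81 and -0.40.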

How the data were processed

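H3K36me3 ChIP DNA and input DNA were hybridised together on 4 arrays. Per the labels' protocols, both were amplified and labelled directly with Cy3 or Cy5. The authors deposited 1 log ratio per probe and array, treated as a score, since the sources used here state neither base nor direction, normalization or genome build. Of 21800 identifiers, 21685 had a value. The arrays of a dye-swap pair held identical values, so 1 column per pair was used (n = 2), and a dye effect cannot be separated.

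Each replicate was centred on its median over all probes. The limma package, version 3.58.1 (R 4.3.3), then tested the mean of every probe against 0 by lmFit and eBayes, with 1 residual and 23.1 prior degrees of freedom, Benjamini-Hochberg adjustment over all probes and a threshold of 0.05. Mixtures were fitted with scikit-learn 1.9.0. Regions were compared by their means in each replicate. Probes were ordered by plate, row and column, and series of probes were broken at gaps in the identifiers. Probes are not replicates of a condition.

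The members, the plates compared and the tests were chosen with earlier results of these data known. Probes named are all upper ones, series of 3 or more called above, the 3 highest and 5 lowest called, the 3 widest replicate differences in each direction and the ends of the block. Other named probes and stretches were chosen after their values were seen. Alternatives were other centrings, quantile normalization, trend and robust settings, a threshold of 0.01, a minimum size of 0.5, turned signs, single replicates and plates left out.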

Additional observations from a re-analysis of the deposited data

How the results depend on the processing

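The direction of the ratio is unknown and n is 2, which limits every result. Quantile normalization and leaving out single plates changed no direction; without single plates the block's mean ranged from -0.48 to -0.45 and the replicate difference from -0.32 to -0.29. Probes called below stayed within 1.5 times 810 (677 to 1118) without centring, with quantile normalization, with trend and robust settings and at a threshold of 0.01. Leaving out the longest stretches of opposite sign on TC29 could not change the 810, since none of their probes was called. The 1118 without centring go with 69.6% of all probes called below, against 32.3% with it. Those called below numbered 339 with centring on the lower mixture component (11.7% of all probes) and 149 with a minimum size of 0.5 (treat; 4.86% of all probes). Probes called above numbered 7 without centring (20.9% of all probes) and 64 with centring on the lower component (47.8%). Turning every sign exchanges the counts, 24 below and 810 above, and gives 0.47 for the block's mean, -0.048 against TA37 to TA51, 1.20 against TC00 to TC13 and 0.92 against all other probes.

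The block's mean was -1.63 without centring and -0.16 with centring on the lower component, and lay between -0.62 and -0.31 in single replicates. The difference from TA37 to TA51 ran from 0.03 to 0.07 in single replicates, and was 0.093 over medians and 0.088 over low probes. The difference from TC00 to TC13 ran from -1.43 to -0.97 in single replicates and was -0.26 over low probes. That from all other probes ran from -1.10 to -0.74 and was -0.55 over medians and -0.20 over low probes. The replicate difference was -0.43 without centring. The share of upper probes was 1.94% with a posterior above 0.5 (36.2% of all probes) and 0.353% with the upper of 3 components alone (15.6%). The correlation of consecutive probes was 0.513 with plate means taken off, 0.449 without upper probes and 0.436 over the 93 pairs across a row end. Among the 11 upper and 5 lowest probes, TC23E04 (-0.030) and TC25F01 (-0.10) turned sign without centring, and TC22C10 (0.46) and TC22C12 (0.31) were no longer called.

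Fits to 4 arrays with the pair as a block were not run, because the paired arrays are identical. Counts of calls could not be recomputed from a single replicate, for want of residual degrees of freedom. No paired analysis was possible because there is only 1 group. The centring on the lower component for the mean and the replicate difference, the replicate difference without centring, the pairs across row ends, the settings for single probes and the left-out stretches were chosen after seeing the data.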
